A study of Rattus norvegicus with 102 samples.

Results

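The genes described here are 6 connexins of the rat hippocampus, Gja1, Gjb6, Gjb2, Gjb1, Gjc3 and Gjd2, chosen by name as the connexins known from astrocytes, oligodendrocytes and neurons. They were 6 of the 26284 genes listed in the Illumina table, and each had exactly 1 entry in each of the 3 deposited tables of normalised reads. The animals were male Fischer 344 rats, 10 young rats of 5 to 6 months (title suffix Y) and 24 aged rats of 17 to 22 months, and the labels name no transgene, allele or drug in either. The aged rats had been divided by their performance in the Morris water maze, a test of spatial memory, into 12 unimpaired (OG) and 12 impaired rats (OB). CA1, CA3 and the dentate gyrus (DG) were dissected from 1 hippocampus of each of the 34 rats, which gave 3 libraries a rat on each platform, and polyadenylated RNA was sequenced once with Illumina chemistry and once more on the Ion Proton. A further table marked WT, whose library type was not given in the sources used here, served only as an alternative.

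Connexins are membrane proteins that assemble into hemichannels, and hemichannels of neighbouring cells dock to form gap junctions through which ions and small metabolites pass. Astrocytes are joined into a network mainly by connexin 43 (Gja1) and connexin 30 (Gjb6), with connexin 26 (Gjb2) found in some astrocytes and strongly in the meninges. Oligodendrocytes, the myelinating glia, use connexin 32 (Gjb1) and connexin 29 (Gjc3) among others. Connexin 36 (Gjd2) is the main connexin of electrical synapses between neurons, known in the hippocampus above all from inhibitory interneurons and also from the mossy fibres that run from the DG to CA3. Since each library held the RNA of all cells of a dissected piece of tissue, fewer cells of a type and less connexin RNA per cell cannot be told apart in any result below.

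The start regions of 5 members are shown as windows of 250 bases before and 50 bases from the start site of the RefSeq gene model in rat assembly GRCr8. They are read 5′ to 3′ on the strand of the gene, and capitals mark CpG dinucleotides, the letters in which CpG islands are rich. Gjb1 on chromosome X (chrX:70541595-70541894, plus strand) and Gjc3 on chromosome 12 (chr12:22024518-22024817, minus strand) are shown because their levels ran together over the libraries. Their windows held 3 and 5 CpG, against a median of 7 over all 33469 windows of the same length.
Gjb1: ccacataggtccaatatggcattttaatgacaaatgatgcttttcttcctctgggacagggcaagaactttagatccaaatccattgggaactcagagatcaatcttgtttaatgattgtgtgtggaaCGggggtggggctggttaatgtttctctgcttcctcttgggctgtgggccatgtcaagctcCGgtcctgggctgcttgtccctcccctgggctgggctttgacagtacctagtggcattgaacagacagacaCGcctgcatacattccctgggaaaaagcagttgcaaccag
Gjc3: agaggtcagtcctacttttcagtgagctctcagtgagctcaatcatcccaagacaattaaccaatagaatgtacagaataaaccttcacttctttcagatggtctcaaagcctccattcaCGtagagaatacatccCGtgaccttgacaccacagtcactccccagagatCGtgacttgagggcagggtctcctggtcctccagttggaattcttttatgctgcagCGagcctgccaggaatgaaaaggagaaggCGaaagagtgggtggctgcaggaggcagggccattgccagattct

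Gjb2 (chr15:35381904-35382203) and Gjb6 (chr15:35410089-35410388) are shown because they lie on the minus strand of chromosome 15 with no other protein-coding gene between them, and because both had their highest values in the same CA3 library. Each window held 25 CpG, and 84.8% of all windows held that number or fewer. Gjd2 on chromosome 3 (chr3:121229318-121229617, minus strand) is shown as the neuronal member, whose values ran opposite to those of the astrocytic members, and its window held 20 CpG.
Gjb2: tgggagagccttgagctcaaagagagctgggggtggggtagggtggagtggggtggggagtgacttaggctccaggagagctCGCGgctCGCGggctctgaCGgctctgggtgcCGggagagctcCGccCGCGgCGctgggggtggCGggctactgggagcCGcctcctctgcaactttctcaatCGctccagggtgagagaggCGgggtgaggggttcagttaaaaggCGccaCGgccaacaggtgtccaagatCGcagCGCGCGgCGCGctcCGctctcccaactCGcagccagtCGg
Gjb6: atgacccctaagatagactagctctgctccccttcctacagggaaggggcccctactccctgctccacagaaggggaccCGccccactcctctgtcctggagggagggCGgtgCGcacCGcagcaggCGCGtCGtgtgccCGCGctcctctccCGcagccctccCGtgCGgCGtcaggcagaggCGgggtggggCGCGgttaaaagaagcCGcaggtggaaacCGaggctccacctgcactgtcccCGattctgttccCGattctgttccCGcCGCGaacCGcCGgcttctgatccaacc
Gjd2: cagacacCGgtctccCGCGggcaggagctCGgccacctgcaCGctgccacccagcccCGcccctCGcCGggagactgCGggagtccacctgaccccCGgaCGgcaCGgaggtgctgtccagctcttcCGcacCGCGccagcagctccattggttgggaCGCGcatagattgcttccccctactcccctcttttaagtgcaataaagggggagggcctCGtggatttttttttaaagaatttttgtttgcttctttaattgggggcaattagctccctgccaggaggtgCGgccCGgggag

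The GC box (GGGCGG on either strand) occurred in the windows of Gjb2, Gjb6 and Gjd2, at 126, 172 and 194 bases before the start site, and for Gjb6 also at 145. It was present in 33.1% of all windows. None of the printed windows held the core letters of SOX binding sites, searched as ACAAAG and, in its other form, as ACAATG, of which at least 1 was present in 29.1% of all windows. Nor did they hold the TATA box (TATAAA, 14.2% of windows) or the E-box, searched as CACGTG (6.42% of windows) and as CAGCTG (15.1% of windows). The window of Gja1, the remaining member, on chromosome 20 (chr20:36302314-36302613, plus strand), held 10 CpG and no match to these letters. A second, downstream start of Gjb6 (chr15:35408913-35409212) had 5 CpG, a GC box and a SOX core. These matches describe letters only.

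Library depth ran from 3246922 to 42750899 reads on Illumina (median 10745742) and from 4470473 to 21434160 reads on Ion Proton (median 9738395). No Illumina library had 3 reads or fewer for any member, and on Ion Proton Gjb2 did so in 1 library, so that depth did not limit detection. In 11 libraries the expression of subfield genes lay nearer to another subfield than to the labelled one in both poly-A tables (1 library labelled CA1, 6 CA3 and 4 DG, from 8 rats). The numbers that the titles give the rats fell into 2 series, 18 rats numbered below 9000 and 16 numbered from 9000 up, and 10 of the 11 libraries came from the latter. The series held 5 young and 13 aged rats and 5 young and 11 aged rats, respectively. The study describes animals from 2 sites with these same numbers, yet no label assigns a rat to a site, so number series, site and anything else that differed between them cannot be told apart.

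Marker lists differed between the number series within each subfield label. The CA2 and CA3 pyramidal cell list (Grik4, Rgs14, Amigo2 and 5 further genes, all 8 detected) summed to a median of 14030 normalised reads in the CA3 libraries of rats numbered below 9000 and 6349 in those of rats numbered from 9000 up. As a mean centred log2 score it stood at 0.59 in the former and −0.38 in the latter, below the 0.21 of the DG libraries of the same rats. Mean scores of the ependyma list (4 of its 6 genes of the ciliated ventricle lining were listed) were 1.89 and 0.15 in CA3, −2.01 and 0.34 in DG and −0.65 and 0.37 in CA1 for the first and the second series. Those of the choroid plexus list (Ttr, Kl and 5 further genes) were −1.02 and 1.96 in CA1, −1.49 and 0.16 in DG, and 0.20 and 0.47 in CA3. The oligodendrocyte score was −0.98 and −0.01 in DG and 0.66 and −0.03 in CA3. The part of these lists in the connexin differences was not tested beyond the covariates given below. All comparisons with CA3 are given for all rats and within each number series. Hereafter a value is in normalised reads, a difference is on the log2(normalised reads + 1) scale from limma, and a subfield difference is called when its adjusted p passed 0.05 in the same direction on both platforms.

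The question of the first comparison was how connexin RNA is distributed over the subfields. Relative to DG, the oligodendrocyte connexins Gjb1 and Gjc3 and the astrocyte connexin Gjb6 were higher in CA1, and the neuronal Gjd2 was lower, by 1.54-fold for both Gjb1 and Gjc3, 1.26-fold for Gjb6 and to 0.483 of the DG level for Gjd2. These 4 of 6 members were called, against 26.4% of all 14179 genes tested. Between CA3 and DG the same 4 members were called in the same directions, against 27.9% of all genes. Between CA1 and CA3 Gjd2 was called alone (1 of 6, against 14.1% of all genes), and that call was absent in rats numbered from 9000 up and without the 7 deeply sequenced rats, where Gjd2 differed by −0.40 (Ion Proton adjusted p = 0.158). Over the 6 members the median difference between CA1 and DG was 0.35, that between CA3 and DG 0.28 and that between CA1 and CA3 −0.07, whereas the medians over all genes stood at 0.00, 0.01 and 0.01.

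**Figure D1:**
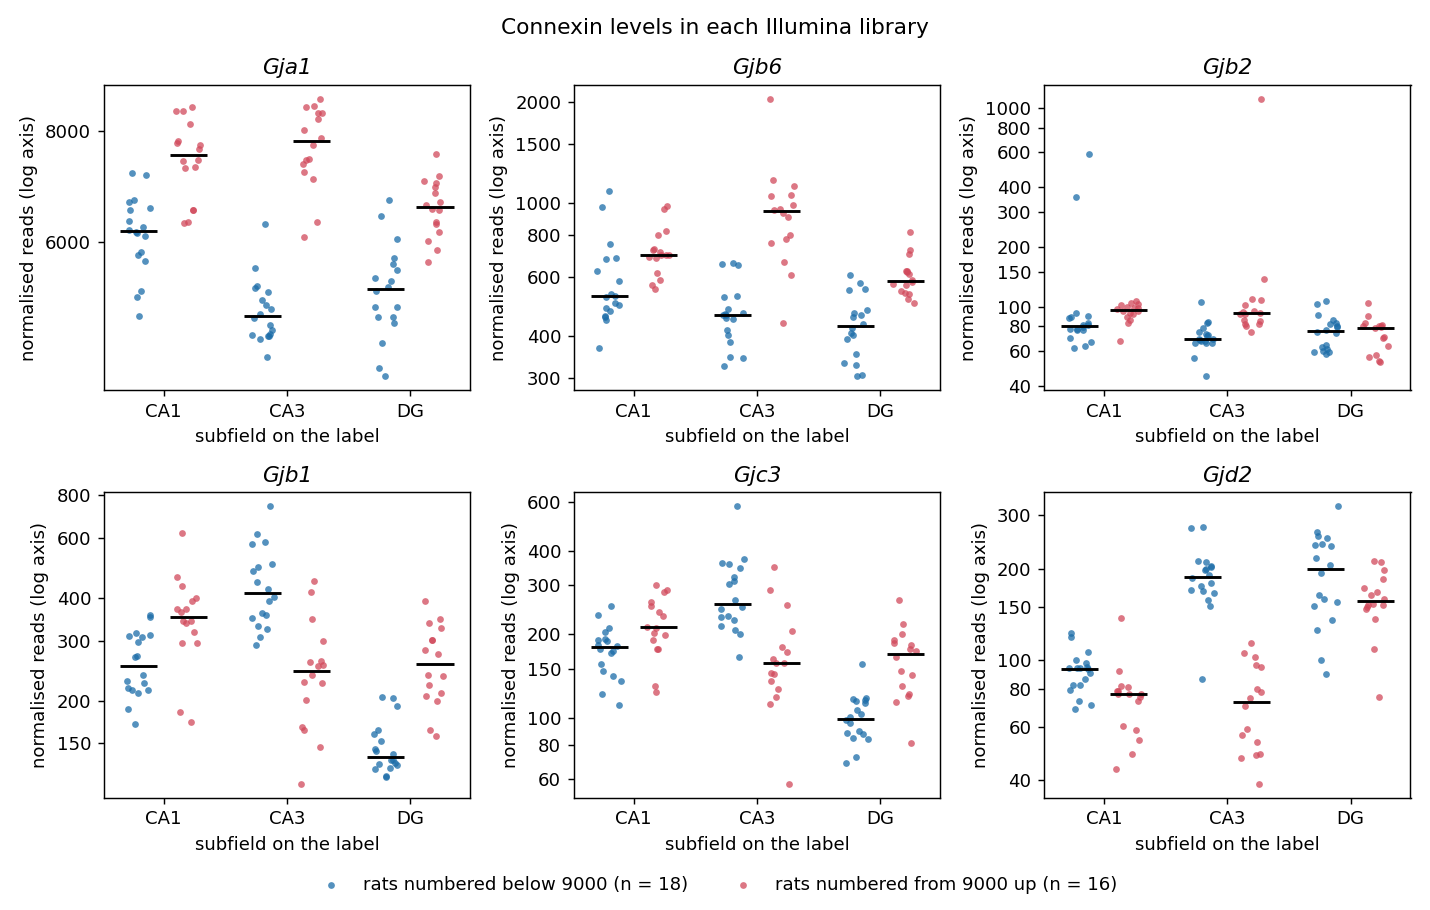
Normalised Illumina reads of the 6 connexins (log axis) in each of the 34 rats' libraries, by subfield label, with points coloured by rat number series and bars at the medians. In the CA3 column Gjd2, Gjb1 and Gjc3 lie higher, and Gja1 and Gjb6 lower, in rats numbered below 9000 than in rats numbered from 9000 up.

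Gja1, which encodes connexin 43, the most widespread connexin of astrocytes, varied least. The lowest, median and highest of the 34 CA1 libraries were 4950, 6532 and 8507 normalised reads, those of the CA3 libraries 4450, 5844 and 8690, and those of the DG libraries 4234, 5941 and 7541. The 3 subfields overlapped over most of their range. CA1 exceeded DG by 0.20 ± 0.06 (SE; adjusted p = 0.00475) on Illumina, but on Ion Proton the difference of 0.16 missed the threshold (adjusted p = 0.101), and Gja1 was not called. It was called between CA1 and DG by limma with the number series as a covariate (0.20, Ion Proton adjusted p = 0.0433), in 2 of the 34 limma fits with a rat left out, and by DESeq2 (0.20, Ion Proton adjusted p = 0.0437).

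Gjb6 (connexin 30), which joins Gja1 in the junctions of mature astrocytes, ranged from 369 to 1088 in CA1 (median 652), from 326 to 2050 in CA3 (median 631) and from 303 to 818 in DG (median 537). The highest value belonged to a CA3 library, while most of the libraries of the 3 subfields shared a common range. CA1 exceeded DG by 0.34 ± 0.11 (adjusted p = 0.00733) and CA3 exceeded DG by 0.34 ± 0.11 (adjusted p = 0.00715), with Ion Proton differences of 0.34 and 0.35. CA1 was the higher of the pair in 31 of 34 rats and CA3 in 25 of 34.

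Gjb2 (connexin 26) was the member whose spread rested on the fewest libraries. It ranged from 62.0 to 590 in CA1 (median 89.2), from 44.8 to 1118 in CA3 (median 81.2) and from 52.7 to 107 in DG (median 77.3). The medians were close, and only the upper ends of CA1 and CA3 rose far above DG. The difference between CA1 and DG was 0.36 ± 0.14 on Illumina (adjusted p = 0.0194) and 0.12 on Ion Proton (adjusted p = 0.695), and limma called Gjb2 in no subfield comparison over all rats. DESeq2 called it between CA1 and DG (0.55, Ion Proton adjusted p = 0.0337), and edgeR between CA3 and DG (0.56, Ion Proton adjusted p = 0.0319).

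Gjb1 (connexin 32) forms junctions between oligodendrocytes and within the layers of myelin. Its CA1 libraries had 170, 308 and 621 normalised reads (lowest, median and highest), its CA3 libraries 114, 340 and 742, and its DG libraries 119, 179 and 393. Although the ranges overlapped, CA1 exceeded DG within 32 of 34 rats. The difference was 0.63 ± 0.13 between CA1 and DG (adjusted p = 1.45e-05, Ion Proton 0.75) and 0.77 ± 0.13 between CA3 and DG (adjusted p = 1.35e-07, Ion Proton 0.88).

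Gjc3 (connexin 29), which oligodendrocytes place on the innermost myelin layer facing the axon, followed the same order. CA1 libraries held 111, 190 and 300.2 normalised reads of it, CA3 libraries 57.7, 220 and 577, and DG libraries 68.7, 116 and 265. CA3 held both the lowest and the highest library of Gjc3. CA1 exceeded DG by 0.62 ± 0.12 (adjusted p = 9.58e-06, Ion Proton 0.82) and in 30 of 34 rats, and CA3 exceeded DG by 0.79 ± 0.12 (adjusted p = 3.08e-08, Ion Proton 0.84).

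Gjd2 (connexin 36), the neuronal member, was the only one with its highest median in DG. CA1 libraries held 43.7, 81.7 and 138 normalised reads of it, CA3 libraries 38.9, 132 and 275, and DG libraries 75.2, 164 and 321. DG exceeded CA1 in 32 of 34 rats, with a difference of −1.05 ± 0.14 for CA1 against DG (adjusted p = 2.99e-10, Ion Proton −1.03). CA3 lay between them, with −0.51 ± 0.14 for CA1 against CA3 (adjusted p = 0.00187, Ion Proton −0.51) and −0.54 ± 0.14 for CA3 against DG (adjusted p = 0.000524, Ion Proton −0.52).

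The place of CA3 depended on the rats. Whether each subfield difference differed between the 2 number series was tested in limma, and a call required an adjusted p under 0.05 on Illumina and only the same direction on Ion Proton. This test called all 6 members for CA1 against CA3, where it called 35.2% of all genes, and all 6 for CA3 against DG, where it called 44.3%. Without the CA3 library of rat R9876 it called 5 of 6 in each, all but Gjb2, and without the CA1 library of rat R2231 it called 5 and 6. With the oligodendrocyte and astrocyte marker scores as covariates 3 of these 12 calls remained, Gja1 (0.21) and Gjd2 (−1.20) for CA1 against CA3 and Gjd2 (1.28) for CA3 against DG, while Gjb1 differed between the series by −0.11 and 0.11 and Gjc3 by 0.06 and −0.04. Between CA1 and DG it called 0 of 6 members and 0.741% of all genes, and at an unadjusted p under 0.05 it found 2095 of the 14179 genes, with Gjb1 alone among the members. Neither edgeR nor DESeq2 called a member there. This test was added after seeing the data, and the series are not groups of the study.

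For Gjd2 the separation in CA3 was nearly complete. Rats numbered below 9000 had 86.5 to 275 normalised reads in CA3 (median 188), and rats numbered from 9000 up had 38.9 to 113 (median 72.6). Of the 18 CA3 libraries of the former series, 17 lay above every one of the latter. On Ion Proton the medians were 125 and 41.1, and the WT values had medians of 106 and 46.6, so that the gap was present in all 3 tables. The CA2 and CA3 pyramidal list differed between the same libraries in the same direction, and its part in the Gjd2 gap was not tested.

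In CA1 and DG the Gjd2 ranges of the series overlapped, with medians of 93.6 and 77.0 in CA1 and 199 and 156 in DG. In rats numbered below 9000 the difference of CA3 against DG was 0.00 ± 0.12 and that of CA1 against CA3 −1.02 ± 0.12, and CA3 was above CA1 in 17 of 18 rats. In rats numbered from 9000 up the difference of CA1 against CA3 was 0.06 ± 0.14 and that of CA3 against DG −1.15 ± 0.14, and CA3 was below DG in 16 of 16 rats. The difference of CA1 against CA3 differed between the series by −1.07 ± 0.19 (adjusted p = 2.03e-06) and that of CA3 against DG by 1.15 ± 0.19 (adjusted p = 3.17e-07).

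The oligodendrocyte members reversed between the series. Gjb1 in CA3 had a median of 414 in rats numbered below 9000 and 245 in the others, whereas in CA1 the medians were 253 and 353 and in DG 137 and 256. CA3 exceeded CA1 in 18 of 18 rats of the first series, and CA1 exceeded CA3 in 15 of 16 rats of the second. The within-series differences of CA1 against CA3 were −0.75 and 0.53, both called and opposite in sign, and those of CA3 against DG were 1.55 and −0.10.

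Gjc3 moved likewise, with CA3 medians of 257 and 158, CA1 medians of 180 and 211 and DG medians of 99.3 and 169. Its CA1 against CA3 differences were −0.67 and 0.40, neither of them called within its series. The series test gave −1.27 ± 0.19 for Gjb1 (adjusted p = 1.87e-08) and −1.07 ± 0.20 for Gjc3 (adjusted p = 4.27e-06). On Ion Proton the Gjc3 value was −0.71 and by itself missed the threshold (adjusted p = 0.0845).

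The astrocyte members moved the other way. Gja1 in CA3 had a median of 4947 in rats numbered below 9000 and 7788 in rats numbered from 9000 up, and 15 of the 16 libraries of the second series lay above every library of the first. Its medians were also higher in the second series in CA1 (6172 and 7522) and in DG (5316 and 6565), so that on Illumina the medians of the series differed in all subfields and most in CA3. In the WT table the Gja1 medians were 2515 and 2906 in CA3 but 3059 and 3071 in CA1, and no CA3 library of the second series lay above every one of the first. Gjb6 in CA3 had medians of 462 and 945, with 14 of 16 libraries of the second series above all of the first, against 525 and 698 in CA1 and 430 and 583 in DG.

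The series test for CA1 against CA3 gave 0.33 ± 0.07 for Gja1 (adjusted p = 5.82e-05), 0.65 ± 0.16 for Gjb6 (adjusted p = 0.000607) and 0.64 ± 0.26 for Gjb2 (adjusted p = 0.0414). The Gjb2 value ran from 0.39 to 0.69 with each rat left out in turn and passed in 28 of 34 such fits. It was 0.42 (adjusted p = 0.0930) without the CA3 library of rat R9876 and 0.49 (adjusted p = 0.0812) without the CA1 library of rat R2231, and its difference of CA3 against DG, −0.67, was −0.44 (adjusted p = 0.0628) without the former. Gjb2 medians in CA3 were 69.1 and 92.8, with CA1 at 80.2 and 97.0 and DG at 75.9 and 78.8. On Ion Proton the Gja1 test (0.27) and the Gjb2 test (0.94) had adjusted p-values of 0.126 and 0.0734, and that of Gja1 for CA3 against DG (−0.29) had 0.0844.

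**Figure D2:**
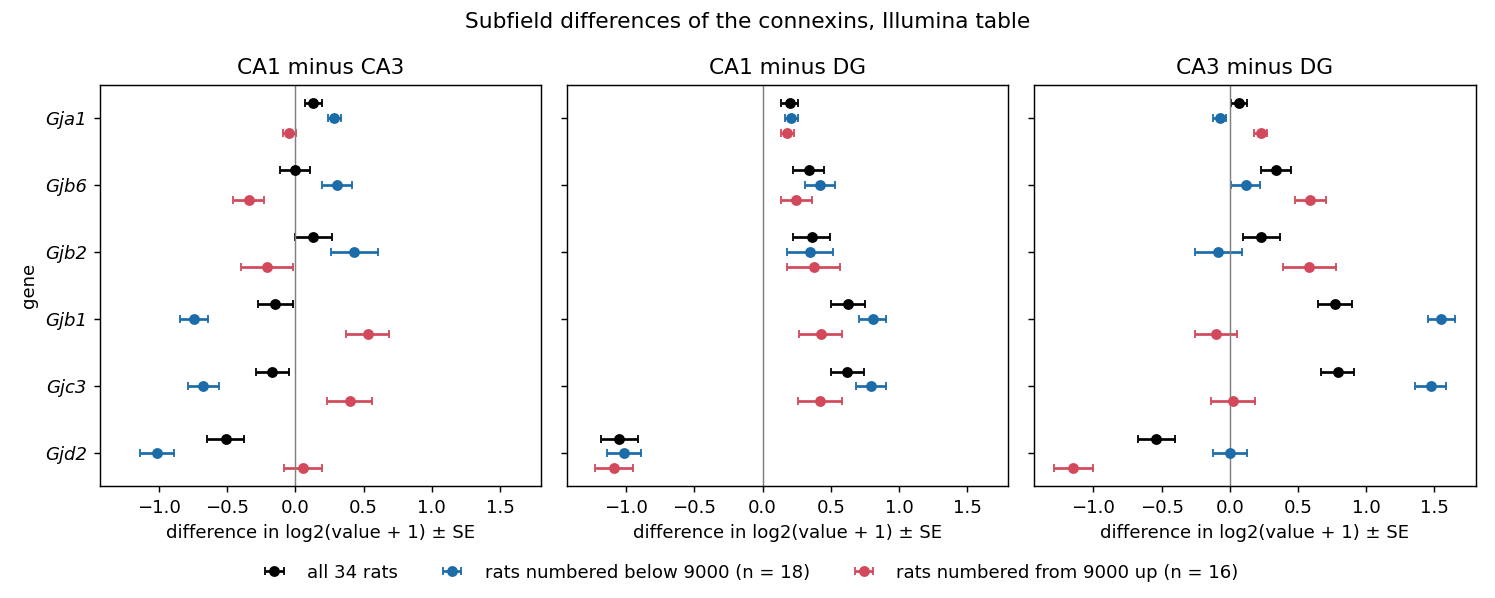
Log2 difference of each connexin ± SE on Illumina in the 3 pairwise subfield comparisons, for all 34 rats, the 18 numbered below 9000 and the 16 numbered from 9000 up. Between CA1 and CA3 the estimates of Gjb1 in the 2 series are −0.75 and 0.53.

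Within rats numbered below 9000, called members were Gjb1 and Gjd2 for CA1 against CA3 (2 of 6, against 21.4% of all genes), Gjb1, Gjb6, Gjc3 and Gjd2 for CA1 against DG (4 of 6, against 15.4%), and Gjb1 and Gjc3 for CA3 against DG (2 of 6, against 22.9%). Within rats numbered from 9000 up they were Gjb1 for CA1 against CA3 (1 of 6, against 3.88%), Gja1, Gjb1, Gjc3 and Gjd2 for CA1 against DG (4 of 6, against 20.5%), and Gja1, Gjb2, Gjb6 and Gjd2 for CA3 against DG (4 of 6, against 21.6%). Gjb1, Gjc3 and Gjd2 were thus called between CA1 and DG in both series. Without the 11 libraries nearer to another subfield, the pooled differences of CA1 against DG were 0.62 for Gjb1, 0.63 for Gjc3, 0.40 for Gjb6 and −1.10 for Gjd2. Within rats numbered from 9000 up and without these libraries, the Gjd2 difference was 0.19 for CA1 against CA3 and −1.38 for CA3 against DG.

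Marker genes of other cells moved with these patterns. The oligodendrocyte list (Mbp, Mog, Mag and 9 further genes, all 12 detected) summed to 80836 to 310969 normalised reads in CA1, 58731 to 411719 in CA3 and 48537 to 234953 in DG. In CA3 its median was 173900 in rats numbered below 9000 and 122600 in the others, in CA1 117900 and 200100 and in DG 60220 and 128700. This is the same order that Gjb1 and Gjc3 took. With the oligodendrocyte and astrocyte scores as covariates Gjb1 differed by −0.03 between CA1 and DG and by −0.02 between CA3 and DG, and Gjc3 differed by 0.07 between CA3 and DG.

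The astrocyte list (Aldh1l1, Aqp4, Slc1a2 and 9 further genes, all 12 detected) had medians of 79400 and 102200 in CA3, 82190 and 102800 in CA1 and 77470 and 89280 in DG for the 2 series. These were higher in rats numbered from 9000 up, as were those of Gja1 and Gjb6. With the same covariates Gjb6 differed by 0.32 between CA1 and DG and by 0.36 between CA3 and DG on Illumina, and neither was called, since Ion Proton gave adjusted p-values of 0.0689 and 0.0652. Gjd2 kept its call between CA1 and DG (−0.99) and lost that between CA3 and DG (−0.50, Ion Proton adjusted p = 0.0900).

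Over all libraries of a platform (34 rats, 3 subfields) Gjb1 and Gjc3 were the most alike pair of members, with a Pearson r of 0.91 on Illumina and 0.82 on Ion Proton. Gja1 and Gjb6 followed with 0.78 and 0.49, and Gjb2 and Gjb6 with 0.58 and 0.53. Gjd2 ran against the astrocyte pair, with −0.66 and −0.42 for Gja1 and −0.59 and −0.56 for Gjb6. The points of these correlations share rats, with 3 libraries from each, and within a platform also a common scaling of the reads, so that they are given as descriptions.

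The oligodendrocyte members, Gja1 and Gjb6 rose and fell with glial marker lists. Gjb2 went instead with the leptomeningeal list, and its r with the astrocyte score was 0.13 on Illumina and 0.24 on Ion Proton. Gjb1 and Gjc3 had r = 0.96 and 0.92 with the oligodendrocyte score, Gja1 and Gjb6 0.83 and 0.60 with the astrocyte score, and Gjb2 0.83 with the leptomeningeal score, over all Illumina libraries. On Ion Proton the same values were 0.70, 0.66, 0.63, 0.56 and 0.66. Gjb1 and Gjc3 were also close to the oligodendrocyte precursor list (Pdgfra, Olig2, Sox10 and others), with 0.83 and 0.85 on Illumina. On Ion Proton their values with that list, 0.81 and 0.76, were above those with the oligodendrocyte score. With the ependyma list they had 0.75 and 0.73 on Illumina and 0.56 and 0.52 on Ion Proton. Gjd2 went with the CA2 and CA3 pyramidal score (0.70 and 0.63) and against the CA1 score (−0.64 and −0.52). Its r with the dentate granule score was 0.15 on Illumina and 0.096 on Ion Proton, and that with the interneuron score was −0.30 and −0.18.

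Among 13907 genes the one most like Gja1 on both platforms was Slc1a3, the astrocytic glutamate transporter GLAST (r of at least 0.91 on either platform), followed by Ppap2b (0.87) and Ttyh1 (0.86). Genes among the 3 most like Gjb1 were Wscd1 (0.92) and S1pr5 (0.92). Among the 3 most like Gjc3 were Adamts4 (0.83) and Myrf (0.83), the latter of which encodes a transcription factor of myelin genes. For Gjd2 they were Gpr158 (0.77), Rspo2 (0.77) and Nefl, a neurofilament subunit (0.75).

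For Gjb6 the most alike genes were Acadm (0.71), Sparc (0.71) and Tp53bp2 (0.69), and for Gjb2 they were Fmod (0.69), Lepr (0.68) and Srpx (0.67). Fmod encodes fibromodulin, a proteoglycan of collagenous tissue. The Gjb2 and Gjb6 values were also read in single libraries, since 3 libraries stood apart for Gjb2. The CA3 library of young rat R9876 had 1118 normalised reads of Gjb2, the CA1 library of impaired rat R2231 had 590, and the CA1 library of young rat R2175 had 359, whereas all other libraries lay between 44.8 and 139. The same libraries took the first 3 ranks for Gjb2 on Illumina, on Ion Proton and in the WT table.

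These 3 libraries also held the most RNA of the leptomeningeal list (Dcn, Lum, Col1a1 and 5 further genes of the soft membranes covering the brain, all 8 detected). Its summed reads were 16170 in the CA3 library of rat R9876, 6296 in the CA1 library of rat R2231 and 3738 in the CA1 library of rat R2175, against at most 1680 in the others. Gjb6 in the 3 libraries was 2050, 1088 and 975, of which only the first exceeded the range of the other libraries, 303 to 1175. Without the CA3 library of rat R9876 the Gjb2 difference of CA1 against CA3 was 0.24 (adjusted p = 0.0576) rather than 0.13, and that of CA3 against DG was 0.12 rather than 0.23. Without the CA1 library of rat R2231 the Gjb2 difference of CA1 against CA3 was 0.05, and with each rat left out in turn it ran from 0.04 to 0.26. The Gjb6 difference of CA3 against DG was 0.29 without the CA3 library of rat R9876 and was still called. The part of leptomeningeal tissue in the remaining Gjb2 differences was not tested.

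**Figure D3:**
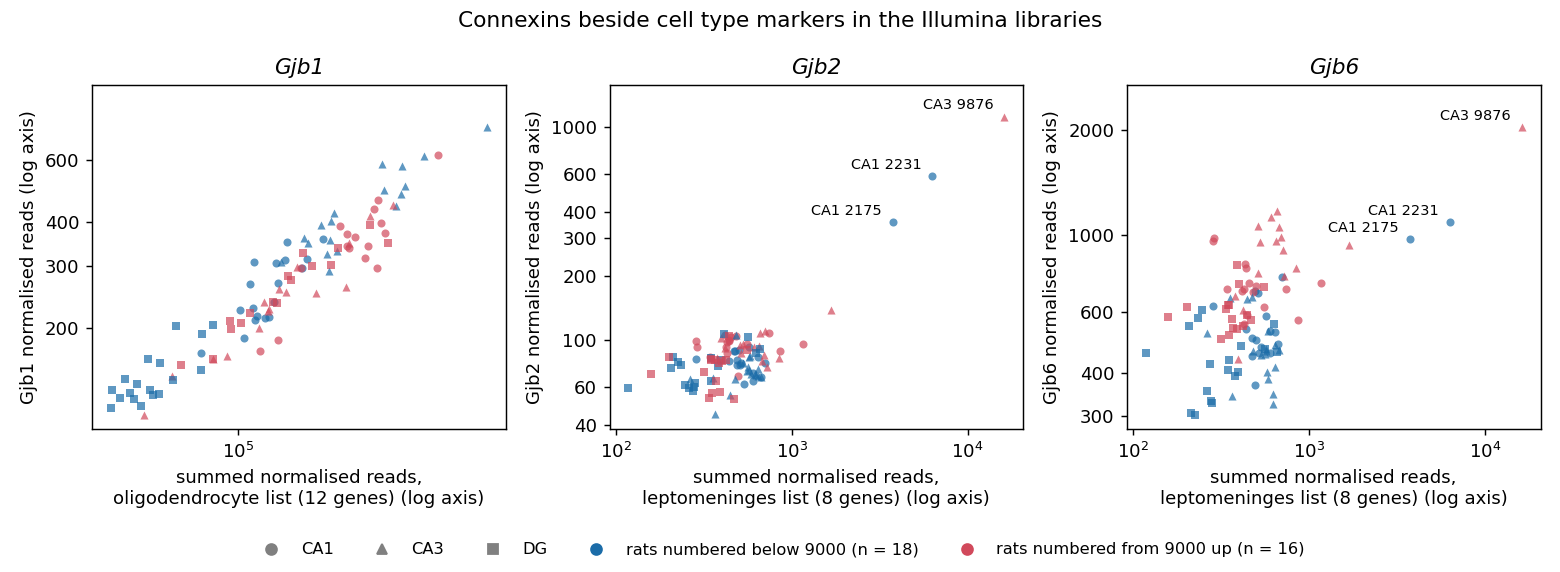
Normalised Illumina reads of Gjb1 against the summed oligodendrocyte markers, and of Gjb2 and Gjb6 against the summed leptomeningeal markers, in all libraries of the 34 rats (log axes). Gjb1 follows the oligodendrocyte sum over its whole range, and the 3 named libraries are apart at the upper right for Gjb2.

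Of the other connexins, 13 of the 14 looked for were listed and 4 passed the minimum of 10 mean normalised reads. Gja4 (0.56) and Gjc1 (0.50), which are connexins of vessels and other tissues, had positive differences of CA1 against DG on Illumina that were not called on Ion Proton. Of the 5 pannexins and junction scaffolds, which include the connexin-related pannexin channels, 4 passed the minimum. Panx1 was called with −0.32 for CA1 against CA3 and 0.21 for CA3 against DG. No gene of these lists was called for age or for cognition in any subfield.

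The next question was whether connexin RNA changed with age. Calls for age and for maze performance required an unadjusted p under 0.01 on Illumina and a one-sided p under 0.05 in the same direction on Ion Proton. Comparing the 24 aged with the 10 young rats, 0 of 6 members were called in CA1, where 0.832% of all genes were, 0 of 6 in CA3 (0.393%) and 0 of 6 in DG (1.07%). At an unadjusted Illumina p under 0.05 limma found 873 of 14191 genes in CA1, with Gjb1 as the only member, and 471 of 14246 in CA3 and 729 of 14019 in DG with no member. DESeq2 called none, and edgeR called Gjb2 in CA3 (−1.07, p = 0.00248), where limma gave −0.25 and, without the CA3 library of young rat R9876, 0.13.

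Gjb1 in CA1 came closest to a call. In young rats it had 170, 216 and 399 normalised reads (lowest, median and highest), in aged unimpaired rats 188.5, 325 and 621, and in aged impaired rats 185, 311 and 435. The ranges overlapped, and 22 of 24 aged rats lay above the median of the young. The difference of aged against young was 0.36 ± 0.15 (p = 0.0193, adjusted p = 0.638) on Illumina and 0.50 ± 0.20 on Ion Proton (one-sided p = 0.00968).

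The Gjb1 difference was thus in the same direction on both platforms and missed the Illumina threshold. It passed in rats numbered below 9000 (0.44, p = 0.0017) and not in those numbered from 9000 up (0.31, p = 0.166), a contrast that was not itself tested. Gjb1 was also called with the number series as a covariate (0.37, p = 0.00452) and without the deeply sequenced rats (0.46, p = 0.00522). The oligodendrocyte list summed to a median of 117912 in the young and 143693 in the aged CA1 libraries, and with the oligodendrocyte and astrocyte scores as covariates the difference was 0.27 and was called. With these covariates Gja1 was also called, at −0.15 (p = 0.00154) in CA1 and −0.21 (p = 0.00016) in CA3. The astrocyte score includes Gfap, which the study lists as increased with age in all subfields. This covariate may thus itself differ with age, and its part in the Gja1 calls was not tested. Gjc3, the other oligodendrocyte member, differed by 0.07 in CA1 (p = 0.598).

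The remaining age differences did not pass the threshold. In CA1 they lay between −0.09 for Gjb6 and 0.07 for Gjc3, in CA3 between −0.25 for Gjb2 and 0.21 for Gjb1, and in DG between −0.08 for Gjc3 and 0.05 for Gjb1. Gja1 differed by −0.08 ± 0.07 in CA1, −0.07 ± 0.12 in CA3 and −0.05 ± 0.08 in DG. Gjd2 differed by 0.02 ± 0.13, −0.14 ± 0.30 and −0.06 ± 0.17.

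Taken by class, aged unimpaired against young rats gave 0 of 6 members called in CA1, where 0.655% of genes were called, 0 of 6 in CA3 (0.281%) and 0 of 6 in DG (0.649%). For aged impaired against young rats the counts were 0 of 6 in CA1 (0.81% of genes), 0 of 6 in CA3 (0.344%) and 0 of 6 in DG (0.97%). Of the 36 differences of these 2 comparisons, Gjb1 of unimpaired against young rats in CA1 alone had an unadjusted p under 0.05 (0.39, p = 0.0252), as had 690 of 14191 genes there. In impaired rats the Gjb1 difference was 0.32 (p = 0.063). DESeq2 called no member in either comparison, and edgeR called Gjb2 in CA3 of impaired against young rats. With the marker covariates Gjb1 was called in CA1 of unimpaired rats (0.26) and Gja1 (−0.26) and Gjb6 (−0.43) in CA3 of impaired rats. The limit given above for the astrocyte score, which includes Gfap, holds for these calls too.

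The last question was whether the aged classes differed. Between impaired and unimpaired rats 1 of 6 members was called in DG, Gjd2, against 0.121% of all genes there (17 of 14011). In CA1 0 of 6 members were called (0.62% of genes), and in CA3 0 of 6 (0.0211% of genes), with no member at an unadjusted p under 0.05 and none called by edgeR or DESeq2 in either. No gene of DG had an adjusted p under 0.05 for this comparison, and 539 had an unadjusted p under 0.05.

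Gjd2 was higher in the DG of impaired rats. Its normalised reads were 75.2, 152 and 241 (lowest, median and highest) in unimpaired, 150, 201 and 321 in impaired and 99.8, 170 and 264 in young rats. The aged classes overlapped, with 11 of 12 impaired rats above the unimpaired median and 2 of 12 above every unimpaired rat. The young range overlapped both, with 2 unimpaired rats below it and 1 impaired rat above it.

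On Ion Proton the Gjd2 values in DG were 34.9, 90.4 and 139.8 in unimpaired, 90.8, 139 and 213 in impaired and 41.2, 116 and 207 in young rats. Impaired exceeded unimpaired rats by 0.51 ± 0.15 (1.42-fold, p = 0.00247, adjusted p = 0.999) on Illumina and by 0.64 ± 0.18 on Ion Proton (one-sided p = 0.000622). Against young rats the unimpaired differed by −0.32 (p = 0.0712) and the impaired by 0.20 (p = 0.255), and neither of these passed the threshold.

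**Figure D4:**
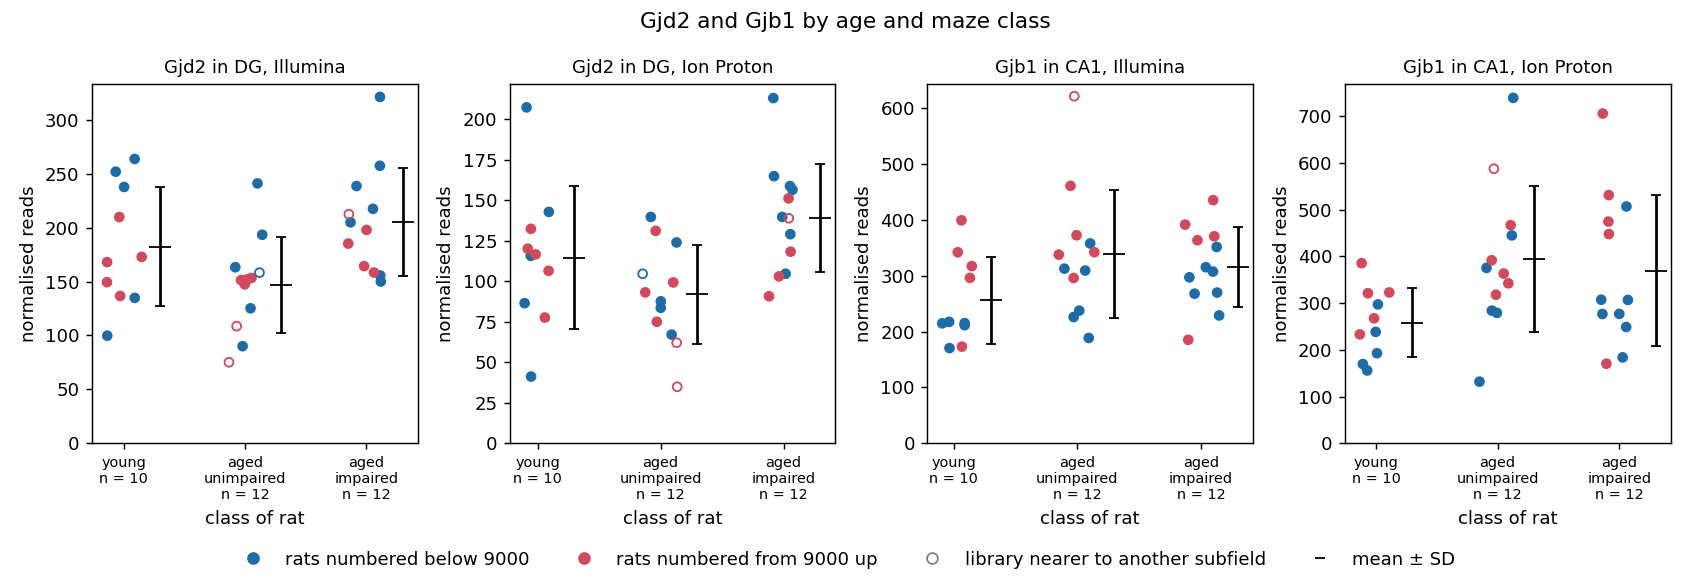
Normalised reads of Gjd2 in DG and of Gjb1 in CA1 in young, aged unimpaired and aged impaired rats on Illumina and Ion Proton, with the mean ± SD. Open symbols are libraries nearer to another subfield. Gjd2 in the impaired rats lies above the unimpaired median in 11 of 12 Illumina libraries, and the classes overlap.

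The Gjd2 call in DG held with every rat left out in turn (difference 0.43 to 0.58, p at most 0.00547). Of the 4 DG libraries nearer to another subfield, 3 came from unimpaired rats (R2232, R9865 and R9869) and 1 from an impaired rat (R9781). In both poly-A tables those of the unimpaired rats lay nearest to CA1 and that of the impaired rat nearest to CA3. Over all rats Gjd2 in CA1 was at 0.483 of the DG level. Without the libraries nearer to another subfield the Gjd2 difference was 0.38 (p = 0.0177) and was not called. Within the number series it was 0.47 (p = 0.039) below 9000 and 0.52 (p = 0.0127) from 9000 up, and neither of these was called. In the WT table it was 0.34 (p = 0.0111).

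The dentate granule list (Prox1, C1ql2, Dsp and 5 further genes, all 8 detected) summed to 2350 to 7963 normalised reads in DG of unimpaired rats and 590 to 6673 in DG of impaired rats, with medians of 5260 and 5042. The CA2 and CA3 pyramidal list summed to 4012 to 12593 and 8050 to 14585, with medians of 10817 and 10877. Their part in the Gjd2 difference was not tested, and with the oligodendrocyte and astrocyte scores as covariates it was 0.51 (p = 0.000979).

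Whether the effects of age or of maze performance differed between subfields was tested for each pair of subfields, with calls made as in the test between number series. For age 0 of 6 members and 0 of all genes were called (0% of genes in each of the 3 pairs), with 268, 50 and 146 genes at an unadjusted p under 0.05 and no member among them. For maze performance 0 of 6 members and again 0% of genes were called for each pair, with 740, 531 and 335 genes at an unadjusted p under 0.05. Gjd2 was the only member among them, and for CA1 against DG alone, with an effect in CA1 that differed from that in DG by −0.66 ± 0.33 (p = 0.0456, adjusted p = 0.999) on Illumina and −1.05 on Ion Proton. Its own effects of impairment were −0.15 in CA1 and 0.19 in CA3. edgeR and DESeq2 called no member in these tests.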

How the data were processed

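Tissue of CA1, CA3 and DG from 34 rats was sequenced by the authors. The deposited tables hold signal values, which are gene counts divided by a size factor for each library. The submitters' processing notes name bcl2fastq 2.17, cutadapt 1.8.3, STAR 2.5, featureCounts 1.4.4, DESeq2 1.16.1 and genome build rn5, and the study's methods name TopHat2 for Ion Proton reads. Sources differ on whether the libraries kept the strand. Whole reads were recovered for 100.0% of values (tolerance 0.001) and used for the count tests.

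Values were analysed as log2(value + 1) with limma 3.58.1 in R 4.3.3 for genes with a mean of at least 10, with p-values adjusted over all genes by Benjamini-Hochberg. edgeR 4.0.16 and DESeq2 1.42.0 on whole reads served as alternatives. Scripts were tested on simulated data. All members were named, with the 3 genes most alike on the smaller of both platforms' correlations. Some genes of the lists and of those most alike are not reported here. Members and lists were chosen with earlier results of these data known.

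The 3 libraries of a rat share its number, because they come from the same animal. Correlations of their deviations from the group means had medians of 0.087 (CA1 and CA3), 0.189 (CA1 and DG) and −0.032 (CA3 and DG) over the 34 rats, and limma's estimate was 0.149 on Illumina and 0.089 on Ion Proton. Promoter windows were taken from RefSeq (GRCr8), for which all 6 members matched.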

Additional observations from a re-analysis of the deposited data

Results flagged for a closer look

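Of 36 sets of young libraries that could be examined (10 rats, 6 members, 3 subfields, 2 poly-A tables), 11 held a library far from the others, where chance gives about 1 in 20 for a single set. The 36 sets are not independent, since the tables measured the same RNA, and the 11 come from 4 libraries. Gjb2 in CA1 was 358.8 normalised reads in rat R2175 on Illumina and 255.6 on Ion Proton, and Gjb6 in the same library was 974.9 and 842.4. Gjb2 in CA3 was 1118 in rat R9876 on Illumina and 959.6 on Ion Proton, and Gjb6 was 2050 and 1804. These are the libraries with the most leptomeningeal RNA among the young rats. Gjb1 in DG was 348.2 in rat R9881 on Illumina, where the next highest value was 237.3, and 331.6 on Ion Proton. Gjc3 in CA3 was 374.6 in rat R2221 on Ion Proton, with the next highest at 224.8. The oligodendrocyte markers summed to 235000 in the DG library of R9881, the highest among DG libraries, and to 411700 in the CA3 library of R2221, the highest of all Illumina libraries. Their part in these values was not tested.

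Subfield differences that differed between rats numbered below 9000 and rats numbered from 9000 up, by a test of that difference in limma, are given as the first series minus the second. For CA1 against CA3 they were 0.33 for Gja1, −1.07 for Gjc3, −1.27 for Gjb1, −1.07 for Gjd2, 0.64 for Gjb2 and 0.65 for Gjb6. For CA3 against DG they were −0.30 for Gja1, 1.45 for Gjc3, 1.65 for Gjb1, 1.15 for Gjd2, −0.67 for Gjb2 and −0.47 for Gjb6. The signs for Gjb1, Gjc3 and Gjd2 were thus opposite to those for Gja1, Gjb2 and Gjb6 in both comparisons. How the CA3 tissue of the 2 series differed was not tested beyond the marker lists.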

How the results depend on the processing

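The 22 member effects that were called include 6 for CA1 against CA3 and 6 for CA3 against DG from the test between number series. Over all 22 effects, 313 values under other settings gave 269 with the same direction and side of the threshold. A further 34 no longer passed and 10 changed sign. With each rat left out in turn, 742 values stayed and 6 no longer passed. Of 225 recomputed counts, 199 stayed within 1.5 times.

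The number of members called between CA1 and CA3 was 0 without the 7 deeply sequenced rats and 2 in rats numbered below 9000, also without libraries nearer to another subfield. Between CA1 and DG it was 1 with marker covariates, and between CA3 and DG 0 with them and 2 in rats numbered below 9000, with or without libraries nearer to another subfield. For aged against young rats in CA1 it was 1 without the deeply sequenced rats, with the number series as a covariate and in rats numbered below 9000, and 2 with marker covariates. In CA3 it was 1 with edgeR and 1 with marker covariates. For impaired against unimpaired rats in DG it was 0 in the WT table, without libraries nearer to another subfield and within either number series. Over the subfields, unimpaired against young rats gave 1 without the deeply sequenced rats, with the number series or with marker covariates, and impaired against young rats gave 1 with edgeR and 2 with marker covariates. With marker covariates 3 of the 12 differences between number series were called. The test between series, single-library settings and within-series fits without libraries nearer to another subfield were chosen after seeing the data. Marker covariates were the oligodendrocyte and astrocyte scores. The causes of these changes were not tested.

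Gjd2 for CA1 against CA3 became 0.057 in rats numbered from 9000 up and 0.19 there without libraries nearer to another subfield, and for CA3 against DG 0.000327 in rats numbered below 9000. Gjb1 for CA3 against DG became −0.10 and −0.045 in those same settings from 9000 up and −0.016 with marker covariates, and for CA1 against DG −0.030 with marker covariates. With marker covariates the difference between series became 0.057 for Gjc3 in CA1 against CA3, −0.037 for Gjc3 and 0.029 for Gjb6 in CA3 against DG.

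With each rat left out, the counts ran from 1 to 1 for CA1 against CA3, 4 to 5 for CA1 against DG, 4 to 4 for CA3 against DG, 0 to 1 for age in CA1, 1 to 1 for impairment in DG, 0 to 1 for unimpaired against young rats and 11 to 12 for the number series, and 0 to 0 for all others. Gjb1 for age in CA1 was called without rat R1930, R9780, R9781 or R9876 (0.30 to 0.43 over all). With the rat as a replicate block, the counts stayed at 1, 4 and 4 for the subfields and 0 and 0 for the effects that differ between subfields, and the pairing changed no other call.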
